A study of Mus musculus with 6 samples.

Results

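The nuclear genes of complexes III, IV and V of the mitochondrial respiratory chain were compared between livers that lack Klf15 and control livers. The members were all genes whose symbol begins with Uqc, with Cox followed by a digit, or with Atp5, without symbols that carry the suffix -ps. This rule found 57 of the 48432 genes in the deposited table: 11 for complex III, 29 for complex IV and 17 for complex V. No measured value entered the rule, and 6 symbols with the suffix were left out. Controls (Ctl, n = 3 libraries) were 10-week-old mice labelled Albumin-Cre, in which Cre recombinase is driven in hepatocytes. The other group (Li-KO, n = 3 libraries) was made of 10-week-old mice labelled as Li-KO for Klf15, a zinc finger transcription factor of the Kruppel-like family, a knockout confined to the liver. Which liver cells other than hepatocytes keep the gene was not measured. The labels do not give the deleted exon, the sex of the mice or their feeding state. Nothing in them says that each library is its own mouse, so a p-value here reflects the spread among libraries, which may be technical.

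Complex III, ubiquinol-cytochrome c reductase, passes electrons from ubiquinol to cytochrome c and pumps protons. Complex IV, cytochrome c oxidase, passes them on to oxygen, and complex V, the ATP synthase, uses the proton gradient to make ATP. Of the subunits, 1 of complex III, 3 of complex IV and 2 of complex V are encoded in the mitochondrial genome, and the others, described here, are encoded in the nucleus and imported together with the factors that assemble them. Several subunits of complex IV come in a widely expressed form, which is the form of liver, and a second form known from striated muscle, lung or testis. Hepatocytes are rich in mitochondria and use this chain to supply gluconeogenesis, urea synthesis and other work of the liver.

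Libraries were made from total RNA with a stranded kit and held 30132499 to 42782318 estimated counts after genes that the authors' software had skipped were removed. Levels are given as CPM, counts scaled to the TMM-adjusted library total, in the order of replicates 0, 1 and 2. Comparisons between genes use FPKM, the deposited values that also account for gene length. Fold changes are Li-KO over Ctl, a log2 fold change is given ± its SE, and adjusted p is the two-sided quasi-likelihood p of edgeR with Benjamini-Hochberg adjustment over the 16533 genes tested. A gene was called at an adjusted p under 0.05. Klf15 itself (ENSMUSG00000030087.11, mm10 chr6:90462576-90475238, plus strand) stood at 346, 174 and 196 CPM in the Ctl libraries against 54.3, 41.6 and 51.8 CPM in Li-KO. The 3 Li-KO values lay below every Ctl value, with a log2 fold change of -2.28 ± 0.26 (adjusted p = 0.00275). Among markers of liver cell types, the 5 measured hepatocyte markers summed to 10100 to 14900 FPKM in Ctl and 11800 to 14000 FPKM in Li-KO, and none was called. The other 3 hepatocyte markers (Alb, Cps1 and Cyp2e1) were among the skipped genes. The 4 erythroid markers summed to 781 to 907 FPKM in Ctl and 274 to 585 FPKM in Li-KO, without overlap and with none called. The 5 cholangiocyte markers summed to 13.2 to 27.2 FPKM and 22.7 to 76.3 FPKM, with Sox9 called lower. No marker of Kupffer cells, sinusoidal endothelium, stellate cells, lymphocytes or smooth muscle was called, and their sums overlapped between the groups.

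Most of these genes stood higher in Li-KO liver. Of the 57 members, 49 had enough counts to be tested and 8, mostly forms of other tissues, did not. Of the 49, 29 were called higher, 0 were called lower and 20 were not called. Without the 2 members annotated as pseudogenes, 28 of 47 were called higher. Over all genes tested, 6.11% were called higher and 5.9% lower. Called members differed by 1.40-fold (Uqcc1) to 2.81-fold (Cox7a1). The median log2 fold change of the 49 members was 0.55, beside -0.01 over all genes tested, and 44 of the 49 values were above 0. Each Li-KO library lay above each Ctl library for 39 members, and the opposite held for 1, Cox20. Over all genes tested the groups did not overlap for 17.4% with Li-KO higher and for 17.8% with Li-KO lower. Summed over all members, the level was 8086, 7026 and 8139 FPKM in the Ctl libraries and 11130, 11340 and 12240 FPKM in Li-KO, a ratio of means of 1.49. In whole liver RNA, fewer cells of a type and less RNA per cell cannot be told apart, and the part of the erythroid and cholangiocyte markers in these differences was not tested.

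**Figure D1:**
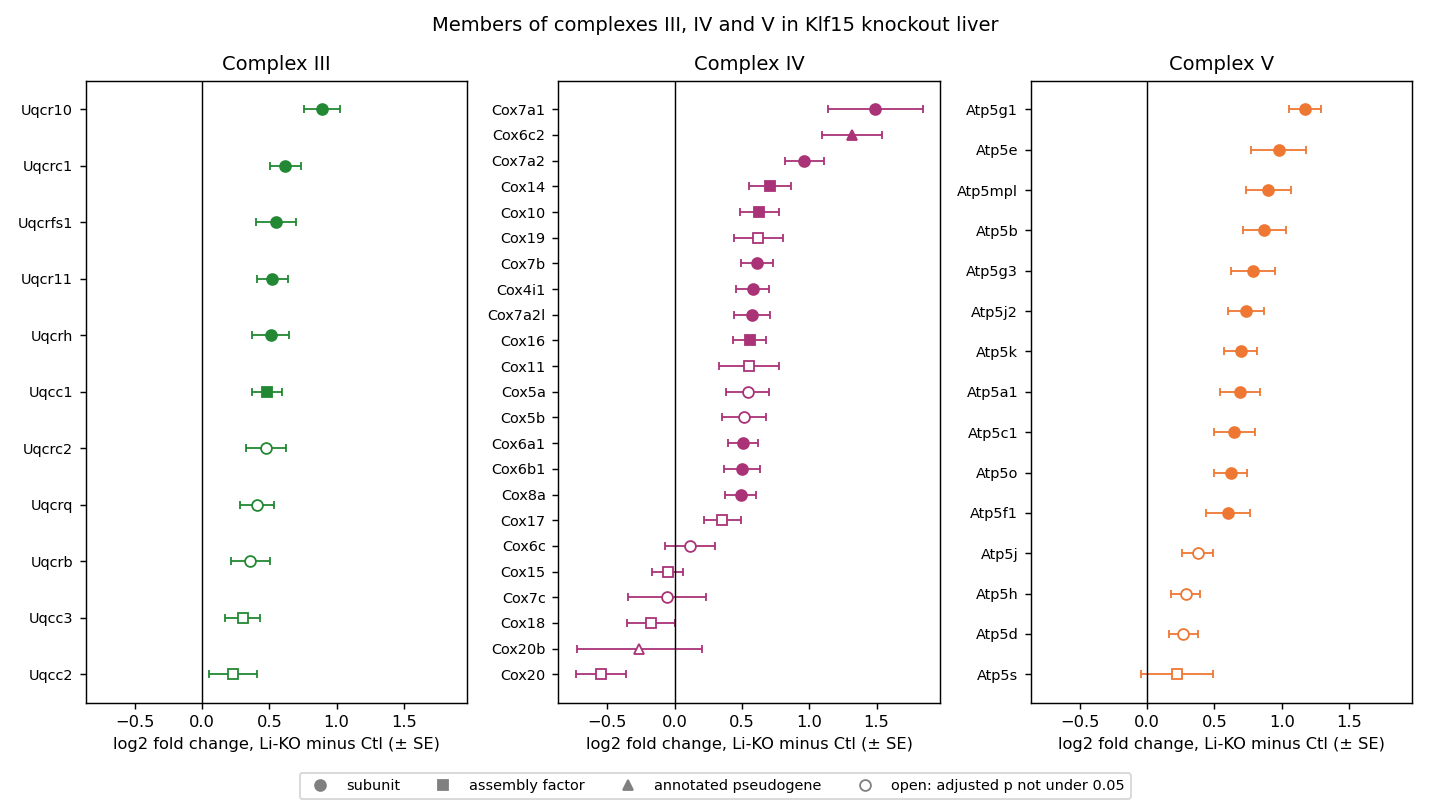
Log2 fold change (Li-KO minus Ctl, ± SE, x axis) of the 49 tested members in panels for complexes III, IV and V, with 1 row per gene, the shape giving the role and a filled symbol marking an adjusted p under 0.05. All filled symbols lie right of 0, and the ATP synthase panel reaches 1.17 at Atp5g1, while Cox20 at -0.55 is the lowest value.

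The number of called members depended on single libraries. Without Ctl replicate 1, 4 members were called higher, in a fit that called 1.16% of all genes higher. Without Ctl replicate 2 there were 6, with 1.5% of all genes. Without Li-KO replicate 1 there were also 6, with 1.32% of all genes. The fits without Ctl replicate 0, Li-KO replicate 0 and Li-KO replicate 2 called 17, 21 and 26 members, with 4.15%, 3.99% and 6.45% of all genes. All 29 called members have groups that do not overlap, so leaving out 1 library could not turn their direction, and their lowest log2 fold change over these 6 fits was 0.40. Uqcr10, Cox7a2 and Atp5g1 were called in all 6 fits, and Uqcrh and Cox6b1 in none. DESeq2 called 35 members higher, with 10.5% of all genes, and edgeR with a replicate block called 28, with 5.78% of all genes. The test of limma on log2(FPKM + 1) called 13 members higher, with 3.15% of all genes. With a pseudocount of 0.1 it again called 13, with 3.44% of all genes, and without a filter on low values it called 6, with 1.57% of all genes.

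Short transcripts stood higher in Li-KO across the whole table, and most members are short. The longest annotated transcript had a median of 1001 bases over the tested members and 3020 bases over all genes tested. Among genes that are not members, the median log2 fold change was 0.25 up to 500 bases, 0.17 up to 1000, 0.10 up to 2000, 0.04 up to 3000, -0.04 up to 5000 and -0.16 beyond that. Members had medians of 1.32, 0.51, 0.55, 0.62 and 0.36 in the first 5 of these classes, with 3, 21, 13, 7 and 5 members. The longest annotated transcript was not always a coding one. For Cox6c it had 3038 bases and the longest coding transcript 738, and for Atp5e these lengths were 1697 and 421. The removal of the length trend used the longest annotated transcript too, so such members may be corrected too little. This may also hold for Atp5g1 (4715 bases) and Cox17 (3690 bases). Their FPKM in Ctl exceeded their CPM (27.02 against 21.05, and 56.2 against 23.3), so the length behind FPKM was shorter. Their log2 fold changes rose from 1.172 and 0.355 to 1.277 and 0.401 with the trend removed. The 48 other genes with a mean of at least 100 CPM and a transcript of up to 1000 bases had a median of 0.15, and 18.8% of them were called higher. After the trend on transcript length was removed, 18 of the 29 called members stayed called and the median of the members was 0.44, in a fit that called 5.18% of all genes higher and had a median of 0.01. With the trend on GC content of the transcripts removed instead, 25 members were called higher, with 5.81% of all genes. In that fit 22 of the 29 stayed called. The 7 that did not were Uqcr11 (adjusted p = 0.0696), Uqcrfs1 (0.0525), Cox4i1 (0.0667), Cox6a1 (0.0997), Cox6b1 (0.0779), Cox8a (0.12) and Atp5a1 (0.0577). Called there but not in the fit without the correction were Uqcrb (0.67, adjusted p = 0.00811), Uqcrc2 (0.58, adjusted p = 0.0244) and Cox5a (0.78, adjusted p = 0.00845).

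**Figure D2:**
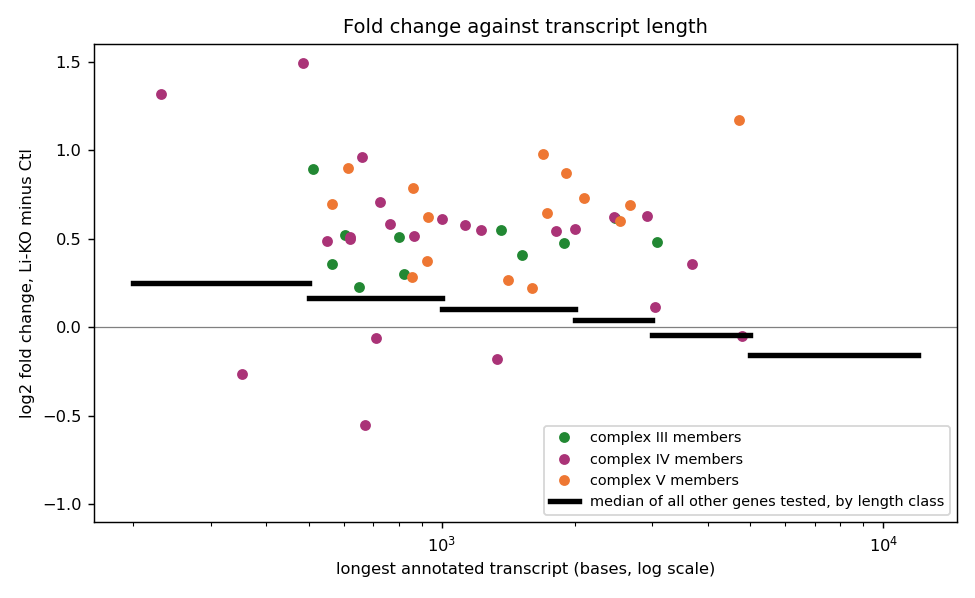
Log2 fold change of each tested member (points, coloured by complex) against the length of its longest annotated transcript in bases on a log axis, with black bars for the median of all other tested genes in each length class. The bars fall from 0.25 in the shortest class to -0.16 in the longest, and most points lie above the bar of their class.

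All 3 complexes had members called higher, and none had a member called lower in the main fit. That fit called 6.11% of all genes higher and 5.9% lower. Complex III had 6 of 11 tested members called higher and a median log2 fold change of 0.48. Complex IV had 12 of 23 and a median of 0.54, and complex V had 11 of 15 and a median of 0.69. Among the 23 were 2 annotated pseudogenes, and without them complex IV had 11 of 21 called higher and a median of 0.54. The summed level of complex III was 1755, 1513 and 1656 FPKM in the Ctl libraries and 2296, 2329 and 2472 FPKM in Li-KO, 1.44 times as high. Complex IV summed to 2860, 2722 and 3227 FPKM in the Ctl libraries and 3997, 4069 and 4393 FPKM in Li-KO, 1.41 times as high. Its protein-coding members alone were 1.38 times as high. Complex V summed to 3472, 2791 and 3256 FPKM in the Ctl libraries and 4834, 4947 and 5375 FPKM in Li-KO, 1.59 times as high. For each complex every Li-KO library lay above every Ctl library.

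The rise of the members relative to Ctl was close in the 3 Li-KO libraries. For complex III, the median member stood 0.49, 0.46 and 0.58 above its Ctl mean on the log2 scale in Li-KO replicates 0, 1 and 2. For complex IV these medians were 0.49, 0.53 and 0.55. For complex V they were 0.58, 0.61 and 0.81 (Li-KO replicate 2), above complexes III and IV in each library. Among the controls, the median member of complex V stood at 0.08, -0.18 and 0.02. No test of the difference between the complexes was made, and their members differ in length and role.

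**Figure D3:**
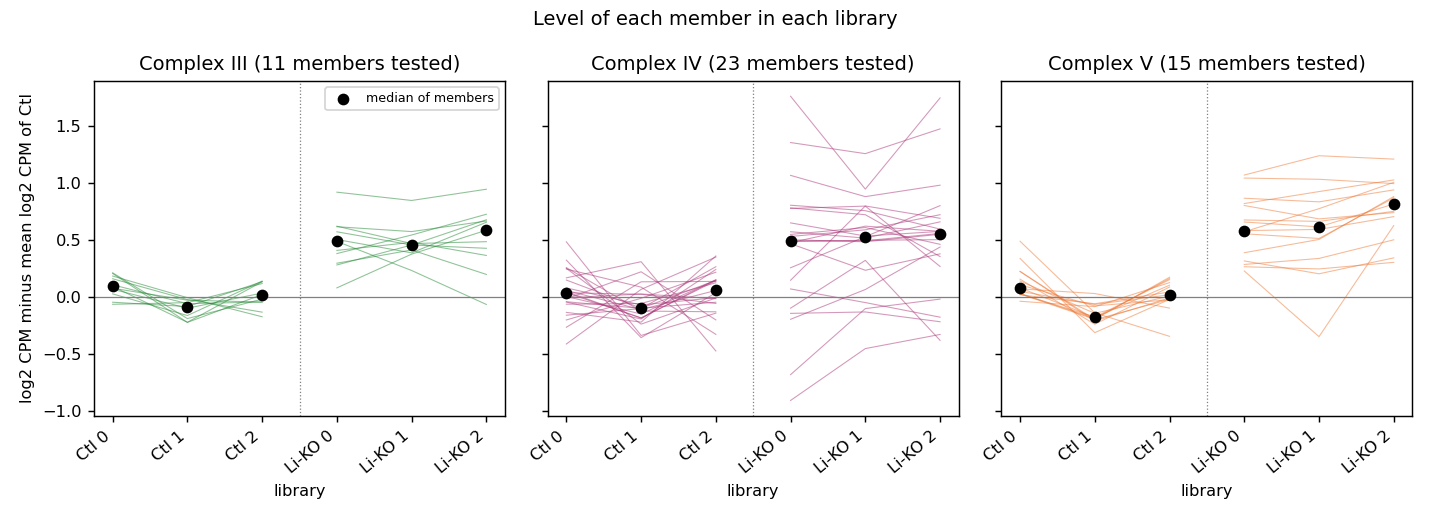
Log2 CPM of each tested member minus its mean log2 CPM over the Ctl libraries (y axis), drawn as thin lines over the 3 libraries of a group, with black points for the median member, in panels for the 3 complexes. The black points of all Li-KO libraries lie between 0.46 and 0.81, and those of the Ctl libraries between -0.18 and 0.09.

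The members comprise structural subunits, factors that assemble the complexes and 2 annotated pseudogenes. Of 34 tested subunits, 24 were called higher, with a median log2 fold change of 0.58, beside 6.11% of all genes called higher. Of 13 tested assembly factors, among which Atp5s is counted here, 4 were called higher (Uqcc1, Cox10, Cox14 and Cox16), with a median of 0.36. Assembly factors were expressed at lower levels, 261 ± 14.8 FPKM summed over all of them in Ctl (SD, n = 3) beside 7383 ± 594 FPKM for the subunits. With the trend on transcript length removed, the medians were 0.45 for subunits and 0.40 for assembly factors. Within complex IV, subunits had a median of 0.53 and assembly factors 0.55 in the main fit, and within complex III these were 0.52 and 0.30. The difference between subunits and assembly factors was not tested.

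Sequence upstream of the start site was available for 43 of the 57 members from RefSeq (GRCm38.p6), and 14 had no entry. The 250 bases before the start site are shown for the 3 members called in every fit without a library, for the member with the largest fold change (Cox7a1), for the second gene of the c subunit (Atp5g3) and for Cox6a1, which holds several of the motifs searched. All are 5′ to 3′ on the strand of the gene, and capitals mark motif matches. The windows are Uqcr10 at chr11:4704345-4704594, minus strand, Cox7a2 at chr9:79759854-79760103, minus strand, Atp5g1 at chr11:96075632-96075881, minus strand, Cox7a1 at chr7:30183921-30184170, plus strand, Atp5g3 at chr2:73911327-73911576, minus strand, and Cox6a1 at chr5:115348959-115349208, minus strand.
Uqcr10: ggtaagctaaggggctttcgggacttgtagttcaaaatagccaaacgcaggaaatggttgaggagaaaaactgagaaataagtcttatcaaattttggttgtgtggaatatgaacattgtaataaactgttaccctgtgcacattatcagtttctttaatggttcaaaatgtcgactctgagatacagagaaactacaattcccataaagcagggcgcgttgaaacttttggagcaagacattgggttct
Cox7a2: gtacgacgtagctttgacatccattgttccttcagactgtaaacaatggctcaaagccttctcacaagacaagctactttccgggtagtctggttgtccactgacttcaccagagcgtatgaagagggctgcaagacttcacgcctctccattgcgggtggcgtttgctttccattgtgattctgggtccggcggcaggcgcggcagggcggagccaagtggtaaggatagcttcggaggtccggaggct
Atp5g1: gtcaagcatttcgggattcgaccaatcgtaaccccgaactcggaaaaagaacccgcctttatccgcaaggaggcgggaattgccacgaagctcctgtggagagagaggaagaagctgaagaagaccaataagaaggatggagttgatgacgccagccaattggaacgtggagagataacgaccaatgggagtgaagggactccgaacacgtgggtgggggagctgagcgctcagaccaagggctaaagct
Cox7a1: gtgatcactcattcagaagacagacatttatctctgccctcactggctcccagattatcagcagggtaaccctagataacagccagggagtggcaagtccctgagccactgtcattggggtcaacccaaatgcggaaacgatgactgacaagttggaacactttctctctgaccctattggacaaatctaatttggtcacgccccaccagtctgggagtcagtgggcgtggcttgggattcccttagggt
Atp5g3: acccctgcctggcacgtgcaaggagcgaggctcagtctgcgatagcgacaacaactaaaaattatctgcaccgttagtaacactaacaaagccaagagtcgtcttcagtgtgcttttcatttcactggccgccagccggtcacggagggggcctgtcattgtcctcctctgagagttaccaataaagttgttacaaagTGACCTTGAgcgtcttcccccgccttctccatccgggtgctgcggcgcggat
Cox6a1: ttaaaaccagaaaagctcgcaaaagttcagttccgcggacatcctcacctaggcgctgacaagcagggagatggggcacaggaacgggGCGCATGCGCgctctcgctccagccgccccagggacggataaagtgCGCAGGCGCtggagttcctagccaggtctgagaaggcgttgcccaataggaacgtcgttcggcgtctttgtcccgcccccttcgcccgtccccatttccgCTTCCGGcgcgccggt

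Motifs were searched as letters on both strands, from 250 bases before to 50 bases after the start site. The sequence GCGCNTGCG of NRF1, a factor known for binding promoters of respiratory chain genes, was found in 13 of 43 members (30.2%), in 14.4% of the tested genes with an entry and in 7.12% of all entries. The sequence CCGGAAG of GABPA, another such factor, was found in 15 members (34.9%), in 18.9% of tested genes and in 9.93% of all entries. NRF1 matches were in 4 of 8 members of complex III, 1 of 20 of complex IV and 8 of 15 of complex V. GABPA matches were in 2, 8 and 5 members. The YY1 sequence AANATGGCG was in 4 members (9.3%), in 5.6% of tested genes and in 2.76% of all entries. The nuclear receptor sequence TCAAGGTCA of ESRRA was in 1 member, Atp5g3, where the match in capitals begins 52 bases before the start site, and in 0.4% of tested genes and 0.47% of all entries. Of letters bound by Kruppel-like factors, GGGTGTGG was in 3 members (7.0%; 4.4% of tested genes, 4.09% of all entries) and CCCCGCCC in 11 (25.6%; 35.4% and 19.56%). Among the windows shown, Cox6a1 holds overlapping NRF1 matches from 162 bases before its start site and a GABPA match 16 bases before it. Uqcr10 and Atp5g3 have an NRF1 match just after the start site, outside the letters shown, while Cox7a1, Cox7a2 and Atp5g1 hold none of the motifs searched. The matches are of letters only, and binding was not measured.

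In complex III, 5 of 8 subunits were called higher, beside 6.11% of all genes, and all 8 had a positive log2 fold change. The 2 core proteins, Uqcrc1 and Uqcrc2, form the matrix-facing part of the complex. Uqcrc1 stood at 265, 246 and 243 CPM in the Ctl libraries against 385, 374 and 399 CPM in Li-KO, without overlap, a log2 fold change of 0.62 ± 0.11 (adjusted p = 0.0147). Uqcrc2 had a log2 fold change of 0.47 ± 0.15 (adjusted p = 0.0695) and was not called. Uqcrfs1, the Rieske iron-sulfur protein that takes electrons from ubiquinol, stood at 217, 164 and 185 CPM in the Ctl libraries against 244, 273 and 310.2 CPM in Li-KO. The groups did not overlap, and its log2 fold change was 0.55 ± 0.15 (adjusted p = 0.0482). Uqcrh, the hinge protein at the cytochrome c side, stood at 148, 119 and 152 CPM in the Ctl libraries against 196, 181 and 218 CPM in Li-KO, with all Li-KO values above the Ctl values and a log2 fold change of 0.51 ± 0.14 (adjusted p = 0.0466).

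The smallest p in complex III belonged to a small supernumerary subunit. Uqcr10 (ENSMUSG00000059534.8, chr11:4701973-4704342, minus strand) stood at 87.8, 65.2 and 77.3 CPM in the Ctl libraries against 144, 137 and 147 CPM in Li-KO. The highest Ctl library was far below the lowest Li-KO library, and the log2 fold change was 0.89 ± 0.13 (adjusted p = 0.00745), with 0.808 to 0.998 over the fits without a library. Uqcr11 stood at 104, 101 and 118 CPM in the Ctl libraries against 165, 148 and 149.9 CPM in Li-KO, again without overlap, with a log2 fold change of 0.52 ± 0.12 (adjusted p = 0.0262). Uqcrq (0.41, adjusted p = 0.0655) and Uqcrb (0.36, adjusted p = 0.144) were not called. Of the assembly factors, Uqcc1, which acts in the synthesis of cytochrome b, stood at 49.9, 44.5 and 44.96 CPM in the Ctl libraries against 68.9, 63.6 and 62.3 CPM in Li-KO, without overlap and with a log2 fold change of 0.48 ± 0.11 (adjusted p = 0.0304). Uqcc2 and Uqcc3 had log2 fold changes of 0.23 and 0.30 and were not called. By level per length, Uqcr11 (319 ± 27.9 FPKM in Ctl and 441 ± 21.1 FPKM in Li-KO, SD, n = 3) and Uqcrq were the highest of the complex in Ctl.

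Among the 18 subunits of complex IV, 12 were tested. Of these, 8 were called higher, beside 6.11% of all genes, and all 8 except Cox7a1 were widely expressed forms. Cox4i1, the largest nuclear-encoded subunit, stood at 339, 302 and 339 CPM in the Ctl libraries against 484, 466 and 514 CPM in Li-KO. All Li-KO values lay above all Ctl values, and the log2 fold change was 0.58 ± 0.12 (adjusted p = 0.0224). Cox6a1 stood at 165, 166 and 188 CPM in the Ctl libraries against 242, 243 and 254 CPM in Li-KO without overlap and changed by 0.51 ± 0.11 (adjusted p = 0.0273) on the log2 scale. Cox6b1, which links the monomers of the enzyme on the intermembrane side, stood at 174, 199 and 233 CPM in the Ctl libraries against 284, 281 and 294 CPM in Li-KO. Its groups did not overlap and its log2 fold change was 0.50 ± 0.14 (adjusted p = 0.0466). Cox7b, a small membrane subunit, stood at 132, 127 and 150.3 CPM in the Ctl libraries against 196, 204 and 224 CPM in Li-KO, without overlap, a log2 fold change of 0.61 ± 0.12 (adjusted p = 0.0182). Cox8a, the smallest subunit, stood at 128, 115 and 142 CPM in the Ctl libraries against 179, 180.4 and 181 CPM in Li-KO, also without overlap, with a log2 fold change of 0.49 ± 0.12 (adjusted p = 0.0325) and very little spread among the Li-KO libraries.

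The liver form of the COX7A subunit, Cox7a2, rose most among the abundant subunits of complex IV. Cox7a2 (ENSMUSG00000032330.6, chr9:79755361-79759878, minus strand) stood at 138, 98.4 and 115 CPM in the Ctl libraries against 243, 214 and 229 CPM in Li-KO. The lowest Li-KO library was well above the highest Ctl library, and the log2 fold change was 0.96 ± 0.15 (adjusted p = 0.00801), with 0.871 to 1.095 over the fits without a library. Cox7a2l, a related protein that joins complexes III and IV in supercomplexes, stood at 48.3, 43.5 and 58.8 CPM in the Ctl libraries against 78.1, 72.1 and 74.2 CPM in Li-KO. Its groups did not overlap, with a log2 fold change of 0.57 ± 0.14 (adjusted p = 0.032). The matrix-side subunits Cox5a (0.54 ± 0.16, adjusted p = 0.0572) and Cox5b (0.52 ± 0.16, adjusted p = 0.0729) had log2 fold changes as large as several called members and were not called. Cox6c stood at 146, 152 and 196 CPM in the Ctl libraries against 142, 171 and 221 CPM in Li-KO, with overlapping groups and a log2 fold change of 0.11 ± 0.19 (adjusted p = 0.731). Per length it was an abundant subunit, at 427 ± 79.8 FPKM in Ctl and 433 ± 99.1 FPKM in Li-KO (SD, n = 3). Cox6b1 had the highest level per length of complex IV, 557 ± 104 FPKM in Ctl and 811 ± 23.3 FPKM in Li-KO (SD, n = 3).

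Of the 9 assembly factors of complex IV, 3 were called higher and 0 lower, beside 6.11% and 5.9% of all genes. Among the 9, 3 had a log2 fold change below 0. Cox10, which farnesylates heme on the way to heme A, stood at 18.4, 18.9 and 18.4 CPM in the Ctl libraries against 31.9, 30.6 and 23.7 CPM in Li-KO, without overlap and with a log2 fold change of 0.63 ± 0.14 (adjusted p = 0.0299). Cox14, which binds newly made mt-Co1 protein, stood at 14.3, 10.9 and 10.9 CPM in the Ctl libraries against 20.9, 20.2 and 18.03 CPM in Li-KO. Its groups did not overlap and it had a log2 fold change of 0.71 ± 0.16 (adjusted p = 0.0277). Cox16 stood at 16.1, 14.5 and 15.2 CPM in the Ctl libraries against 21.2, 23.4 and 22.7 CPM in Li-KO, without overlap, with a log2 fold change of 0.56 ± 0.12 (adjusted p = 0.0278). This gene shares 56.8% of its exonic length with Gm20498 on the same strand, so that the 2 genes cannot be told apart over that stretch. Cox15, the next enzyme after Cox10 in heme A synthesis, had a log2 fold change of -0.05 ± 0.12 (adjusted p = 0.816) with overlapping groups. The copper chaperones and copper factors Cox11, Cox17 and Cox19 had positive log2 fold changes (0.55, 0.35 and 0.62) and were not called. Of the exonic length of Cox11, 48.3% lies opposite Tom1l1. Cox20, a chaperone of mt-Co2, was the only tested member with every Li-KO library below every Ctl library, at 17.3, 14.8 and 18.5 CPM in the Ctl libraries against 8.93, 12.2 and 13.3 CPM in Li-KO. Its log2 fold change of -0.55 ± 0.19 (adjusted p = 0.0895) was not called, and 91.1% of its exonic length lies opposite Hnrnpu. With the trend on transcript length removed it was called lower, at -0.75 with an adjusted p of 0.0406, in a fit that called 4.35% of all genes lower. Whether the counting used strand is not stated in the labels, so reads of Cox11 and Cox20 may not be told apart from those of these partners.

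The ATP synthase had 11 of 15 tested members called higher, beside 6.11% of all genes. The catalytic head, F1, is built of 5 kinds of subunit, and 4 of them were called. Its alpha subunit Atp5a1 stood at 1314, 1140 and 1432 CPM in the Ctl libraries against 2059, 2041 and 2170 CPM in Li-KO, and its beta subunit Atp5b, which carries the catalytic sites, at 1434, 1090 and 1367 CPM in the Ctl libraries against 2347, 2296 and 2469 CPM in Li-KO. Neither showed overlap, and their log2 fold changes were 0.69 ± 0.15 (adjusted p = 0.026) and 0.87 ± 0.16 (adjusted p = 0.015). The gamma subunit Atp5c1, the central shaft, stood at 223, 191 and 247 CPM in the Ctl libraries against 322, 313 and 401 CPM in Li-KO with a log2 fold change of 0.65 ± 0.15 (adjusted p = 0.032), and its groups did not overlap. The epsilon subunit Atp5e stood at 93.3, 60.3 and 52.3 CPM in the Ctl libraries against 137, 136 and 132 CPM in Li-KO. Its Ctl libraries were widely spread and its Li-KO libraries nearly equal, without overlap and with a log2 fold change of 0.98 ± 0.20 (adjusted p = 0.0215). The delta subunit Atp5d also had no overlap, at 201, 185 and 197 CPM in the Ctl libraries against 233, 230.0 and 239 CPM in Li-KO, but its log2 fold change of 0.27 ± 0.11 (adjusted p = 0.135) was not called.

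The membrane sector and peripheral stalk of the ATP synthase had 7 of 9 tested subunits called higher, beside 6.11% of all genes. Atp5f1, the b subunit of the stalk, stood at 220.2, 189 and 241 CPM in the Ctl libraries against 282, 306 and 397 CPM in Li-KO, without overlap and with a log2 fold change of 0.60 ± 0.16 (adjusted p = 0.0496). Atp5o, the oligomycin sensitivity protein that holds the head, stood at 129, 108 and 131 CPM in the Ctl libraries against 182, 184 and 199 CPM in Li-KO. Its groups did not overlap, with a log2 fold change of 0.62 ± 0.12 (adjusted p = 0.0177). Atp5h and Atp5j, other stalk subunits, had log2 fold changes of 0.28 ± 0.11 (adjusted p = 0.13) and 0.38 ± 0.11 (adjusted p = 0.0667), without overlap and without a call. Atp5j2, the f subunit, stood at 119, 88.7 and 100.3 CPM in the Ctl libraries against 178, 164 and 170.1 CPM in Li-KO, a log2 fold change of 0.73 ± 0.13 (adjusted p = 0.0142) without overlap. Atp5k, the e subunit that helps the enzyme to form dimers, stood at 74.2, 60.98 and 67.7 CPM in the Ctl libraries against 106, 103 and 119 CPM in Li-KO, with all Li-KO values above all Ctl values. Its log2 fold change was 0.69 ± 0.12 (adjusted p = 0.0125). Atp5mpl, a small membrane protein of the enzyme, stood at 62.8, 39.99 and 48.97 CPM in the Ctl libraries against 87.8, 94.4 and 101 CPM in Li-KO, without overlap and with a log2 fold change of 0.90 ± 0.17 (adjusted p = 0.0157). Atp5s, known as factor B, had overlapping groups and a log2 fold change of 0.22 ± 0.27 (adjusted p = 0.623).

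The c subunit, which forms the proton-driven ring, is made from 3 genes that encode the same mature protein with different import sequences. Atp5g1 (ENSMUSG00000006057.15, chr11:96068852-96075670, minus strand) had the smallest p of all members. It stood at 22.1, 21.4 and 19.6 CPM in the Ctl libraries against 44.1, 49.6 and 48.6 CPM in Li-KO, each Li-KO library at least 2 times the mean of Ctl, with a log2 fold change of 1.17 ± 0.12 (adjusted p = 0.00165) and 1.12 to 1.24 over the fits without a library. Atp5g3, the main gene of the ring in liver by level, stood at 268, 198 and 228 CPM in the Ctl libraries against 342, 393 and 462 CPM in Li-KO. Its groups did not overlap, and its log2 fold change was 0.78 ± 0.16 (adjusted p = 0.0223). Per length, Atp5g1 had 27.02 ± 1.79 FPKM in Ctl and 61.4 ± 5.74 FPKM in Li-KO and Atp5g3 had 358 ± 45.8 FPKM in Ctl and 579.5 ± 89.3 FPKM in Li-KO (SD, n = 3). Atp5g1 made up 6.45%, 8.41% and 6.42% of the pair in Ctl and 10.1%, 10.2% and 8.7% in Li-KO, without overlap. The log2 ratio of the pair was 0.49 higher in Li-KO (exact permutation test, two-sided, p = 0.1), and 0.1 is the smallest p that 3 against 3 libraries allow. Atp5g2 had counts of 1, 0 and 0 in the Ctl libraries against 14, 9 and 3 in Li-KO, too few to be tested, with every Li-KO count above every Ctl count.

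Forms of complex IV known from muscle, lung or testis were near the limit of detection, except Cox7a1. Cox7a1, the heart and muscle form (ENSMUSG00000074218.3, chr7:30184144-30186078, plus strand), stood at 1.37, 1.51 and 0.875 CPM in the Ctl libraries against 4.12, 2.34 and 4.08 CPM in Li-KO. The groups did not overlap, the log2 fold change was 1.49 ± 0.35 (adjusted p = 0.0317), and it was called in 1 of the 6 fits without a library. Its level per length was 4.02 ± 1.62 FPKM in Ctl and 12.5 ± 3.41 FPKM in Li-KO (SD, n = 3), beside 153 ± 26.3 FPKM in Ctl and 288 ± 17.5 FPKM in Li-KO for Cox7a2. The share of Cox7a1 in this pair was 2.60 ± 1.13% in Ctl and 4.13 ± 0.927% in Li-KO (SD, n = 3), with overlapping groups. The log2 ratio of Cox7a1 to Cox7a2 differed by 0.74 between Li-KO and Ctl (exact permutation test, two-sided, p = 0.2). The share of Cox7a2l beside Cox7a2 was 22.2 ± 3.40% in Ctl and 17.7 ± 0.324% in Li-KO (SD, n = 3), without overlap. The log2 ratio of Cox7a2l to Cox7a2 differed by -0.40 (exact permutation test, two-sided, p = 0.1). Of 9 markers of skeletal or heart muscle, Ckm, Mb and Myh4 were at 0 in all libraries, and the sum was 0.76 to 1.01 FPKM in Ctl and 0.678 to 1.37 FPKM in Li-KO. Of 6 adipose markers, Ucp1 and Lep were at 0, with sums of up to 0.125 FPKM in Ctl and 0.311 FPKM in Li-KO.

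**Figure D4:**
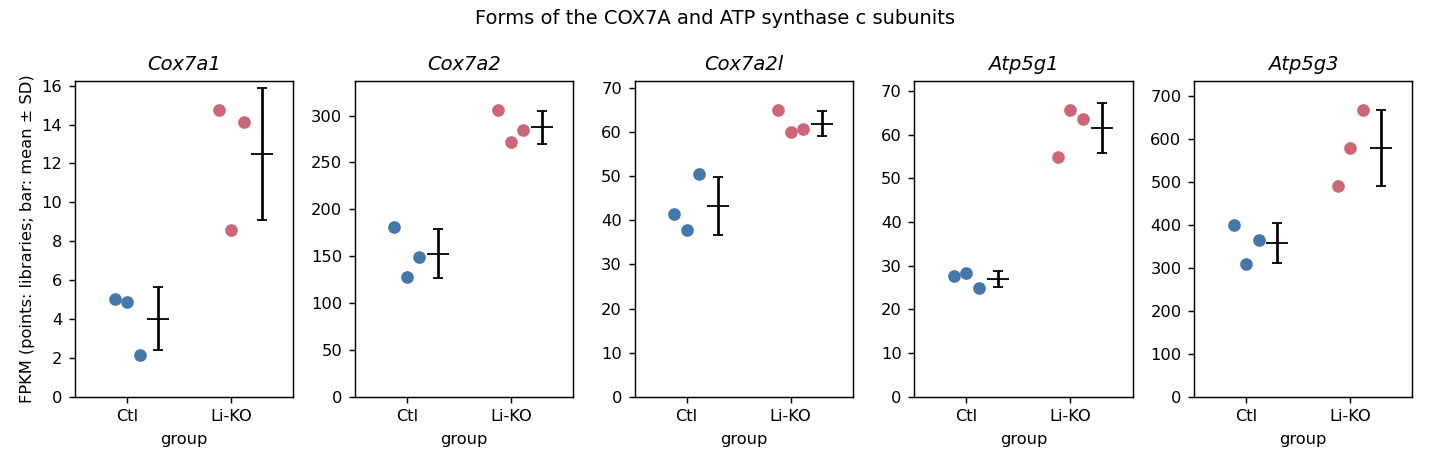
FPKM in each library (points) with the mean ± SD of the group (bars) for the 3 forms of the COX7A family and 2 genes of the ATP synthase c subunit, each on its own axis from 0. In all 5 panels every Li-KO point lies above every Ctl point, and the axis of Cox7a1 ends at a far lower FPKM than those of Cox7a2 and Atp5g3.

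The remaining forms were too low for the test across all genes. Cox4i2, the lung form, had counts of 7, 3 and 2 in the Ctl libraries against 5, 0 and 1 in Li-KO. Cox6a2, the heart and muscle form, had counts of 2, 1 and 2 in the Ctl libraries against 5, 0 and 2 in Li-KO, and the testis form Cox6b2 had 2, 5 and 6 in the Ctl libraries against 1, 2 and 8 in Li-KO. Cox8b, a form of muscle and brown fat, had counts of 0, 0 and 5 in the Ctl libraries against 9, 4 and 0 in Li-KO. Cox7b2 and Cox8c, both known from testis, had 0 counts in all libraries, which allows up to 3 counts in each, and the 4 markers of testis germ cells were at 0 too. Most of these values lie at 0 or near the 0.1 FPKM that was added before taking ratios to the main form, so the size of the ratio is set largely by that pseudocount. The isoform log2 ratio Atp5g2/Atp5g3 differed by 1.29 between Li-KO and Ctl with 0.1 FPKM added and by 3.50 with 0.01 FPKM. The isoform log2 ratio Cox4i2/Cox4i1 differed by -1.06 and -2.10. For Cox6b2/Cox6b1 the isoform log2 ratio differed by -0.95 with 0.1 FPKM added, without overlap (exact permutation test, two-sided, p = 0.1), at the few counts given above. Over the 8 pairs that could be computed, those of Atp5g1, Cox7a1 and Cox7a2l included, the adjusted exact p ranged from 0.267 to 0.7, so no pair passed the correction, which 3 against 3 libraries could not do at any depth. Outside these forms, the counts of Atp5l, a subunit of the membrane sector of the ATP synthase, were also too low to be tested. They were 7, 11 and 7 in the Ctl libraries against 17, 2 and 9 in Li-KO, and why they were this low was not tested.

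Several members share stretches of sequence with annotated pseudogenes, over which reads cannot be told apart. Annotated pseudogenes that share at least 10% of the 50-base windows of a member's transcripts were taken as its copies. Cox7c, a small membrane subunit that is usually abundant, was listed at only 2.88, 4.01 and 4.88 CPM in the Ctl libraries against 3.58, 4.79 and 2.94 CPM in Li-KO, with a log2 fold change of -0.06 ± 0.29 (adjusted p = 0.919). Its copies held 88.0% of the summed counts, nearly all in Gm12338, which shares 10.6% of these windows and stood at 18.8, 14.2 and 20.5 CPM in the Ctl libraries against 43.4, 36.2 and 37.2 CPM in Li-KO (1.13 ± 0.17, adjusted p = 0.00723). The sum of gene and copies was 21.7, 18.2 and 25.4 CPM in the Ctl libraries against 47.02, 41.01 and 40.2 CPM in Li-KO, without overlap, a log2 fold change of 0.97 ± 0.15 (adjusted p = 0.00899). For Atp5h, Gm10250 held 42.9% of the summed counts, and the sum had a log2 fold change of 0.44 ± 0.11 (adjusted p = 0.0393), past the threshold that the gene alone missed. Adding Gm12231 to Atp5f1 gave an adjusted p of 0.0777, and adding Gm6969 to Cox7a2l gave 0.0664, so both calls were lost. The sum of Uqcrb and its 3 copies had a log2 fold change of 0.15 ± 0.18 (adjusted p = 0.604). For Atp5l, 7 copies held 93.8% of the summed counts, and the sum had a log2 fold change of 0.47 ± 0.29 (adjusted p = 0.327). With these copies Atp5l still stood at only 2.47, 3.82 and 3.74 CPM in the Ctl libraries against 5.51, 5.11 and 3.26 CPM in Li-KO.

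**Figure D5:**
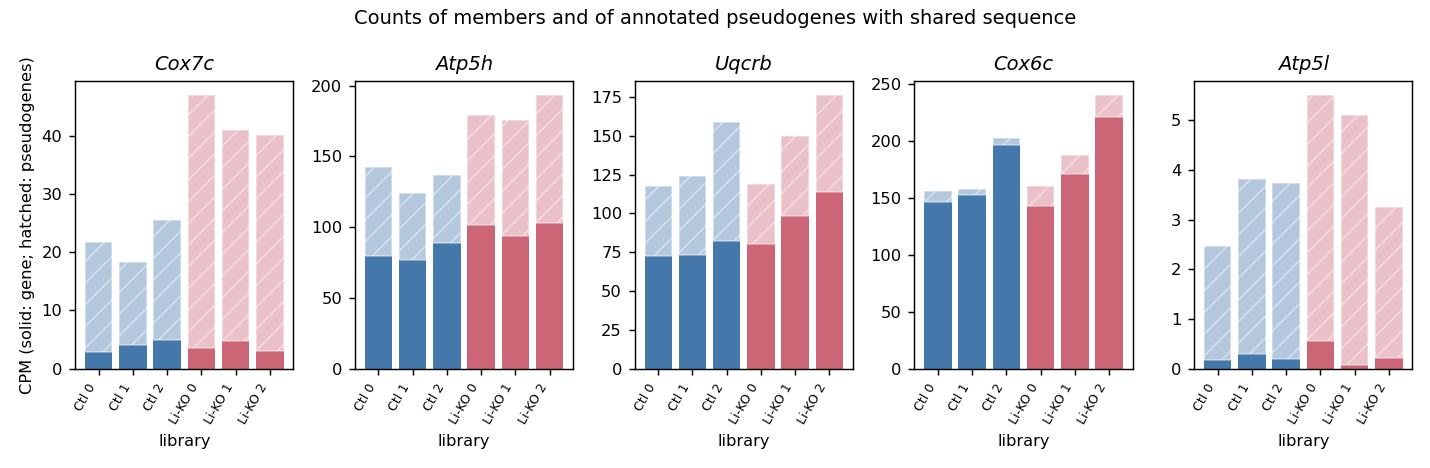
CPM of 5 members (solid bars) with their annotated pseudogene copies stacked on top (hatched bars) in each library, Ctl in blue and Li-KO in red, each panel on its own axis from 0. For Cox7c and Atp5l most of the height is hatched, and the full bars of Cox7c and Atp5h are higher in every Li-KO library than in every Ctl library.

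Both members annotated as pseudogenes are copies of other members. Cox6c2 (ENSMUSG00000066491.4, chr12:56373593-56373823, minus strand), a processed copy of Cox6c, stood at 9.71, 5.49 and 6.29 CPM in the Ctl libraries against 17.8, 16.6 and 19.3 CPM in Li-KO. The groups did not overlap and the log2 fold change was 1.32 ± 0.22 (adjusted p = 0.0114), called in 5 of the 6 fits without a library and lost without Ctl replicate 2 (adjusted p = 0.0509). Added to Cox6c, of whose sum it holds 6.65%, it left a log2 fold change of 0.19 ± 0.18 (adjusted p = 0.519). Cox20b, a processed copy of Cox20, had overlapping groups and a log2 fold change of -0.26 ± 0.47 (adjusted p = 0.753). With the pseudogenes added to their members, 29 members in all were called higher, in a fit that called 6.1% of all genes higher. Cox6c2 kept its own entry in that fit and was among the 29.

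Genes that work with these complexes under other names were counted in the same fit, which called 6.11% of all genes higher and 5.9% lower. Of 5 other complex III genes, all tested, 1 was called higher and 0 lower, with a median log2 fold change of -0.003. Cyc1, the called gene and cytochrome c1 subunit of the complex itself, stood at 181, 139 and 150.2 CPM in the Ctl libraries against 233, 274 and 292 CPM in Li-KO, without overlap and with a log2 fold change of 0.77 ± 0.15 (adjusted p = 0.0164). Cytochrome c, Cycs, which carries electrons from complex III to IV, stood at 11.1, 12.4 and 12.4 CPM in the Ctl libraries against 8.15, 8.16 and 15.5 CPM in Li-KO, with overlapping groups and a log2 fold change of -0.17 ± 0.26 (adjusted p = 0.698). Per length it was low, at 2.92 ± 0.288 FPKM in Ctl (SD, n = 3). The search for pseudogene copies covered members only, so reads that Cycs may share with copies were not examined. Of 19 other tested complex IV genes, 5 were called higher and 0 lower, with a median log2 fold change of 0.33. The 4 with the smallest p were Smim20 (0.74, adjusted p = 0.013), Coa7 (0.54, adjusted p = 0.027), Coa3 (0.58, adjusted p = 0.0289) and Ndufa4 (0.64, adjusted p = 0.035). Of these, Smim20, Coa7 and Coa3 act in assembly and Ndufa4 is a subunit of complex IV. Of 7 other tested complex V genes, 2 were called higher, the assembly factor Tmem242 (0.54, adjusted p = 0.0307) and the small subunit Usmg5 (0.96, adjusted p = 0.0466). The median of these 7 was 0.39. The 6 subunits of complexes III to V that the mitochondrial genome encodes were listed at 0 in all libraries and could not be compared.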

How the data were processed

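Liver RNA of 3 Ctl and 3 Li-KO libraries was analysed from a table with 1 entry per gene and library. Per the submitters' processing notes, the authors used STAR, Cufflinks and Cuffdiff on mm10. Their versions, annotation and use of strand are not stated there. Per the file headers, the table holds estimated counts of fragments that are not normalized (expected counts; 3.29% are not whole) and FPKM as deposited, scaled to length and depth by Cuffdiff. A deposited status column marks 77 genes skipped for depth in at least 1 library; these were removed, and no member was among them. Its conditions WT and KO were taken as Ctl and Li-KO by title and replicate number.

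Estimated counts were rounded. Symbols, positions and transcript lengths came from GENCODE M21 (48051 genes matched, 381 not). Genes were filtered with filterByExpr of edgeR 4.0.16 (minimum count 10, minimum total 15), scaled by TMM and tested by the two-sided quasi-likelihood test with the group as the only term in R 4.3.3. SE is the log2 fold change divided by the square root of F. Isoform ratios, log2 of FPKM + 0.1, were compared by exact permutation over libraries. Alternatives were DESeq2 1.42.0, limma 3.58.1 on log2 FPKM, other scalings, no filter, the replicate number as a block, and leaving out each library; removal of trends on transcript length and GC content and the addition of pseudogene counts were chosen after seeing the data. The edgeR fit was checked on simulated data.

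The members, gene lists, markers and motifs were chosen with earlier results of these data known. By the rule for named genes, called members, both forms of each isoform pair and Klf15 have a value in every library; other members were named by smallest p or highest level, and up to 4 called genes per list by smallest p. Genes outside this rule, or given in every library beyond it (among them Cox6c, Cox7c, Cox20, Atp5d, Atp5l, Cycs, Gm12338 and Ppargc1a), were chosen after their values were seen.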

Additional observations from a re-analysis of the deposited data

How the results depend on the processing

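The count of 29 members called higher was 35 by DESeq2 and 28 with a replicate block, beside 10.5% and 5.78% of all genes. No member was called lower by either. Same-numbered libraries deviated together only weakly (correlations of 0.018, 0.081 and 0.067), so the numbers were not taken as a pairing; 4 of the 6 libraries correlated best with their own number. Leaving out each library in turn gave 4 to 26 members called higher. Limma on FPKM gave 13 (pseudocount 1), 13 (pseudocount 0.1) and 6 (without a filter). With the length trend removed there were 18 higher and 1 lower. The median log2 fold change of complex III was 0.407 by limma (0.41 with a pseudocount of 0.1, 0.407 without a filter) and 0.329 with the length trend removed. That of complex IV was 0.486 by limma (0.488 and 0.486 with the other settings), 0.483 to 0.564 without single libraries, 0.401 with the length trend removed and 0.479 with the GC trend removed. Members near 0 changed sign. The log2 fold change of Cox7c was 0.122, 0.137 and 0.122 by the limma settings, -0.269 to 0.126 without single libraries (0.126 without Ctl replicate 2, 0.089 without Li-KO replicate 2), 0.421 with the GC trend removed and 0.972 with copies added. Over the fits without a library, the log2 fold change of Cox6c was -0.077 to 0.269, the log2 fold change of Cox15 was -0.094 to 0.005, and the log2 fold change of Atp5s was -0.038 to 0.44, each crossing 0 without Li-KO replicate 2. Cox15 was 0.057 with the length trend removed. Over the same fits, the isoform log2 ratio Cox6a2/Cox6a1 differed by -0.872 to 0.009 (without Li-KO replicate 1) and the isoform log2 ratio Cox8b/Cox8a by -0.006 (without Li-KO replicate 0) to 1.911. The cause of these changes was not tested. Fits without a library hold fewer samples, and adding copies adds counts. RLE and upper-quartile scaling and the fit without a count filter kept the direction of all members tested. With 3 libraries a group, isoform ratios could not reach an exact p under 0.1.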

Other observations

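Complexes I and II, which feed electrons into the same chain, were not members but were measured in the same fit. That fit called 6.11% of all genes higher and 5.9% lower. Of 49 tested genes with symbols that begin with Nduf, among them Ndufa4, given above as a subunit of complex IV, 22 were called higher and 0 lower, with a median log2 fold change of 0.48 (edgeR with Benjamini-Hochberg adjustment over all genes). Without Ndufa4 there were 21 of 48. The smallest p belonged to Ndufv1, the NADH-binding subunit, at 184, 155 and 166 CPM in the Ctl libraries against 306, 304 and 289.7 CPM in Li-KO and a log2 fold change of 0.83 ± 0.12 (adjusted p = 0.00624), followed by Ndufs5 (1.23 ± 0.18, adjusted p = 0.00711), Ndufa7 (0.70 ± 0.11, adjusted p = 0.0091) and Ndufa2 (0.80 ± 0.13, adjusted p = 0.0111). Of 8 tested genes of complex II, 3 were called higher, 1 lower and 4 were not called, with a median log2 fold change of 0.44. The membrane anchors Sdhc (0.82 ± 0.14, adjusted p = 0.0124) and Sdhd (0.84 ± 0.16, adjusted p = 0.0161) and the assembly factor Sdhaf4 (0.85 ± 0.17, adjusted p = 0.0198) were called higher, and the assembly factor Sdhaf3 (-0.63 ± 0.17, adjusted p = 0.0433) was called lower. Of the other subunits, named after their values were seen, Sdha, the flavoprotein, had a log2 fold change of 0.22 ± 0.14 (adjusted p = 0.317), and Sdhb, the iron-sulfur protein, had -0.37 ± 0.14 (adjusted p = 0.109) and lay lower in every Li-KO library. With the trend on transcript length removed, Sdhb was called lower, at -0.50 with an adjusted p of 0.0497.

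Of 19 regulators of mitochondrial genes, 2 were called higher and 2 lower, with a median log2 fold change of 0.11. The same fit called 6.11% of all genes higher and 5.9% lower, and whether 2 of 19 differs from these shares was not tested. Esrra, a nuclear receptor known to act on respiratory chain genes, stood at 40.7, 39.8 and 36.6 CPM in the Ctl libraries against 89.5, 74.7 and 70.00 CPM in Li-KO, without overlap, a log2 fold change of 1.0 ± 0.13 (adjusted p = 0.00446). Sirt3, the mitochondrial deacetylase, had a log2 fold change of 0.61 ± 0.12 (adjusted p = 0.0188). The coactivator Ppargc1b stood at 18.4, 17.4 and 12.1 CPM in the Ctl libraries against 9.18, 7.96 and 6.83 CPM in Li-KO, lower in every Li-KO library, with a log2 fold change of -1.0 ± 0.20 (adjusted p = 0.021), and Yy1 had -0.69 ± 0.19 (adjusted p = 0.0471). The related coactivator Ppargc1a, named after its values were seen, stood at 38.4, 20.1 and 16.9 CPM in the Ctl libraries against 91.7, 35.9 and 53.7 CPM in Li-KO, with overlapping groups and a log2 fold change of 1.27 ± 0.39 (adjusted p = 0.0678). Whether these regulators act on the members was not tested.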
